A study of Mus musculus with 6 samples.

Results

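The 51 genes described here are regulators of alternative splicing: the SR proteins and their Tra2 relatives (12 genes), the hnRNP proteins (15), the Sam68-like proteins (2), regulators of neural and other tissues (14), and 8 regulators that earlier work tied to the long noncoding RNA Miat, namely Sf1, Qk, Celf1 to Celf4, Nova1 and Nova2. They were taken by symbol from a list of names and make up 51 of the 24063 gene symbols in the deposited tables. RNA came from mouse stem-like medulloblastoma cells of the cerebellum. All 3 groups had the genotype Math1-Cre; SmoM2, in which Cre driven by Math1, a gene of granule neuron progenitors, turns on SmoM2, an always active Smoothened, which transduces Hedgehog signals. The control group carried the CRISPR guide sgGal4-4 (labelled WT), and the other groups carried sgMiat-6 or sgMiat-96 (both labelled as Miat knockdown), with 2 libraries for each guide and 6 in all. The labels give no age, animal, clone or culture, so the p-values measure the spread between these libraries only, which may be technical.

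Splicing removes introns from pre-mRNA, and regulators decide which exons are kept by binding short motifs near the splice sites. SR proteins bind exonic enhancers and mostly promote the inclusion of exons, whereas many hnRNP proteins bind silencers and oppose it. Families such as Nova, Rbfox, Elavl, Celf, Mbnl and Ptbp act by position, and in the brain a change in their balance accompanies the step from progenitor to neuron. Miat, also called Gomafu, is a nuclear RNA with repeats of the sequence UACUAAC. This sequence resembles the intron branch point bound by Sf1 (splicing factor 1), and its ACUAA core resembles the motif bound by Qk (quaking).

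The repeats are shown because they are the feature of Miat that its ties to Sf1 and Qk rest on. The GENCODE M21 transcript of Miat is 8758 bases long and holds 6 copies of TACTAAC (the DNA spelling), all in exon 7 of 7, and 0 copies on the other strand. Of 600 mouse transcripts between 8000 and 10000 bases long, 1 per gene, 20.7% hold at least 1 copy on their own strand, and 1 transcript, Miat itself, holds 6 or more. The shorter ACTAAC, which overlaps TACTAAC, occurs 11 times in Miat. Of the 600 transcripts, which include Miat, 2 hold at least as many. The motif ACTAAT occurs 3 times in Miat, and 102 of the 600 transcripts (17%) hold at least as many. At least 1 copy of ACTAAT is in 68.2% of the compared transcripts. A match is a description of the letters and not a measured binding site. The stretches below are on GRCm38, minus strand, at chr5:112217309-112217460 (first) and chr5:112216752-112216812 (second), and capitals mark TACTAAC.
Miat first stretch: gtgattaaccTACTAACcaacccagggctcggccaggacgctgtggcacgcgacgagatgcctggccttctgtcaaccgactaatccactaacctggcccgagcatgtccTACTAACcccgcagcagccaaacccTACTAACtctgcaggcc
Miat second stretch: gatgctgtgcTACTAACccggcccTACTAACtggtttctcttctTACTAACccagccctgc
Each stretch holds 3 of the 6 copies. Over the row kept for Miat, the sgGal4-4 libraries had 140 and 139 counts and all 4 Miat libraries had 0. Set against a floor of 3 counts over a group, this is at least 94.5-fold lower for sgMiat-6. For sgMiat-96 it is at least 83.4-fold lower.

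With 1 transcript row kept per symbol, the libraries held 18438891 to 19650274 counts. Levels are CPM, counts scaled to the total of the library with TMM factors, as mean ± SD (n = 2). Differences are log2 fold changes ± SE from edgeR's quasi-likelihood test, called at a Benjamini-Hochberg adjusted p under 0.05 over 13220 genes. The defining markers of the labelled cells were mixed. Nes and Sox2, markers of neural stem cells, averaged 1130 and 218 CPM in the control, while Prom1 was at 0 there. Atoh1, the gene that Math1-Cre is named for, was at 0 in all 3 groups. The 9 granule neuron progenitor markers, Atoh1 among them, summed to 196 to 213 CPM over the control libraries. The sums were 205 to 244 for sgMiat-6 and 196 to 215 for sgMiat-96. In the control, 2 of the 9 were under 1 CPM, and Ptch1 (77.9 CPM) and Zic1 (50.7 CPM) were the highest. With both guides 4 of the 7 tested were called higher and 3 lower. The marker lists of microglia, endothelium, meninges and epithelium each summed to 9.84 CPM or less in every library. In these bulk samples, fewer cells of a type and less RNA per cell cannot be told apart.

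Of the 51 regulators, 46 passed the filter on low counts and were tested. With both Miat guides together 12 of the 46 rose and 14 fell, or 56.5%, where 66.5% of all 13220 genes were called, 33.1% higher and 33.4% lower. The rises were small among the SR and hnRNP genes, and the falls were large among the neural and tissue regulators. All 9 regulators that changed by at least 2-fold belonged to the Miat-tied group (4) or to the neural and tissue group (5), and 0 of the 29 SR, Tra2, hnRNP and Sam68-like genes did. For all genes tested, 25.1% changed by at least 2-fold, against 19.6% of the regulators. With sgMiat-6 the shares were 19.5% and 17.4%, and with sgMiat-96 31.7% and 15.2%. The median absolute log2 fold change was 0.26 for the regulators and 0.54 for all genes, and the medians with sign were both 0.00. With sgMiat-6 alone 9 rose and 12 fell (45.7%), where 53.0% of all genes were called, 26.9% higher and 26.1% lower. With sgMiat-96 alone 13 rose and 16 fell (63% of 46), where 68.2% of all genes were called, 34.0% higher and 34.2% lower. Scaling by total counts alone shifted the median of all genes by -0.13 with both guides and turned the split into 8 higher and 20 lower. Leaving out sgGal4-4 replicate 1 lowered the count of calls to 17.

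Per kilobase of transcript, the hnRNP genes stood at the top of the control. Hnrnpa1 led at 587.1 CPM per kb, followed by Hnrnpa2b1 at 386.4, Hnrnpab at 377.7, Hnrnpk at 314.8 and Hnrnpu at 253.1. The lowest tested genes were regulators known from neurons, with Nova1 at 3.72 CPM per kb, Elavl4 at 1.78, Celf4 at 1.23, Elavl3 at 0.701 and Rbfox1 at 0.0983. In CPM, 35 regulators reached at least 100 in the control, 34 with sgMiat-6 and 32 with sgMiat-96. The 51 genes took 1.36% of all CPM in the control, 1.34% with sgMiat-6 and 1.31% with sgMiat-96.

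Among the 8 regulators tied to Miat, Nova1 and Celf4 rose with both guides, and Qk, Celf2 and Nova2 fell with both. Of the 7 tested, 2 rose and 3 fell with both guides together, where 33.1% of all genes rose and 33.4% fell. Sf1 (chr19:6363690-6378030, plus strand on GRCm38), which recognises the branch point early in spliceosome assembly, had 278.1 and 275.3 CPM in the sgGal4-4 libraries, 219.2 and 238.4 with sgMiat-6, and 281.7 and 286.1 with sgMiat-96. The sgMiat-6 libraries were the lowest, and the sgMiat-96 libraries lay above both controls. Over both guides the log2 fold change of Sf1 was -0.12 ± 0.08 (adjusted p = 0.232, edgeR quasi-likelihood test). It fell by 0.27 ± 0.10 with sgMiat-6 (adjusted p = 0.0318), a call lost without either control library (adjusted p = 0.218 without replicate 1 and 0.189 without replicate 2) and without sgMiat-6 replicate 1 (0.101). With sgMiat-96 its log2 fold change was 0.04 ± 0.10 (adjusted p = 0.749).

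Qk (chr17:10202601-10319854, minus strand), a regulator of glial splicing and RNA stability, had 660.3 and 648.4 CPM in the control, 508.3 and 374.5 with sgMiat-6, and 316.8 and 341.2 with sgMiat-96. All 4 Miat libraries lay below both controls, and the sgMiat-6 libraries lay apart from each other. With both guides Qk fell 1.72-fold (log2 -0.78 ± 0.11, adjusted p = 3.84e-05, edgeR quasi-likelihood test). The size depended on the transcript row. In the 4658-base row of Qk, in place of the kept row of 6717 bases, the levels were 553 and 548 CPM in the control, 545 and 354 with sgMiat-6, and 315 and 331 with sgMiat-96. In that row sgMiat-6 replicate 1 was level with the controls, and the log2 fold change with sgMiat-6 was -0.29 (adjusted p = 0.146), against -0.57 ± 0.13 in the kept row (adjusted p = 0.00263).

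The CELF proteins bind GU-rich RNA and act in splicing and mRNA decay. Celf1 (chr2:90940382-91019497, plus strand), the broadly expressed member, had 248.8 and 243.3 CPM in the control, 280.8 and 227.0 with sgMiat-6, and 160.7 and 187.8 with sgMiat-96. The sgMiat-96 libraries were the lowest, and the sgMiat-6 libraries spanned the controls. Celf1 fell by 0.50 ± 0.12 with sgMiat-96 (adjusted p = 0.00268, edgeR quasi-likelihood test). With the trend over transcript length removed, described further on, the same comparison gave a called rise of 0.32 (adjusted p = 0.00199). Its log2 fold change with sgMiat-6 was 0.04 ± 0.12 (adjusted p = 0.773). Celf2 (chr2:6539694-7509563, minus strand), which is enriched in neural and muscle tissue, had 206.9 and 187.1 CPM in the control, 101.6 and 85.8 with sgMiat-6, and 73.4 and 84.8 with sgMiat-96. The groups of control and Miat libraries did not overlap. Celf2 fell 2.29-fold with both guides (adjusted p = 3.96e-07).

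Celf4, a neuronal member, had 5.20 and 4.66 CPM in the control, 13.7 and 10.6 with sgMiat-6, and 8.94 and 9.75 with sgMiat-96. All 4 Miat libraries lay above both controls, and Celf4 rose by 1.11 ± 0.18 on the log2 scale (adjusted p = 0.000104, edgeR quasi-likelihood test). In its shortest row the rise was 0.58 (adjusted p = 0.176) with both guides and 0.13 (adjusted p = 0.804) with sgMiat-96. Celf3, another neuronal member, was near the limit of detection, with 14 and 4 counts in the control libraries, 7 and 2 with sgMiat-6, and 0 and 1 with sgMiat-96. It was not tested. The control held 16.1 times as much as sgMiat-96 by these counts after scaling (95% Clopper-Pearson interval 2.55 to 673, counting error only).

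The Nova genes moved in opposite directions. Nova1 and Nova2 encode closely related proteins that bind clusters of UCAU-like motifs and direct splicing in neurons. Nova1 (chr12:46694517-46818929, minus strand) had 25.3 and 26.8 CPM in the control, 89.0 and 82.1 with sgMiat-6, and 86.2 and 74.2 with sgMiat-96. Every Miat library was far above the controls, and Nova1 rose 3.18-fold (log2 1.67 ± 0.11, adjusted p = 5.01e-08, edgeR quasi-likelihood test). Nova2 (chr7:18925888-18965319, plus strand) had 54.1 and 51.2 CPM in the control, 21.2 and 25.8 with sgMiat-6, and 23.8 and 29.3 with sgMiat-96. Every Miat library was below the controls, and Nova2 fell 2.11-fold with both guides (log2 -1.08 ± 0.12, adjusted p = 4.48e-06). Neither gene differed detectably between the guides (adjusted p = 0.566 for Nova1 and 0.369 for Nova2). With the length trend removed, Nova2 was called higher with sgMiat-96 than with sgMiat-6 (log2 0.642, adjusted p = 0.00958). Nova1 was not called there (0.338, adjusted p = 0.0572).

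**Figure D1:**
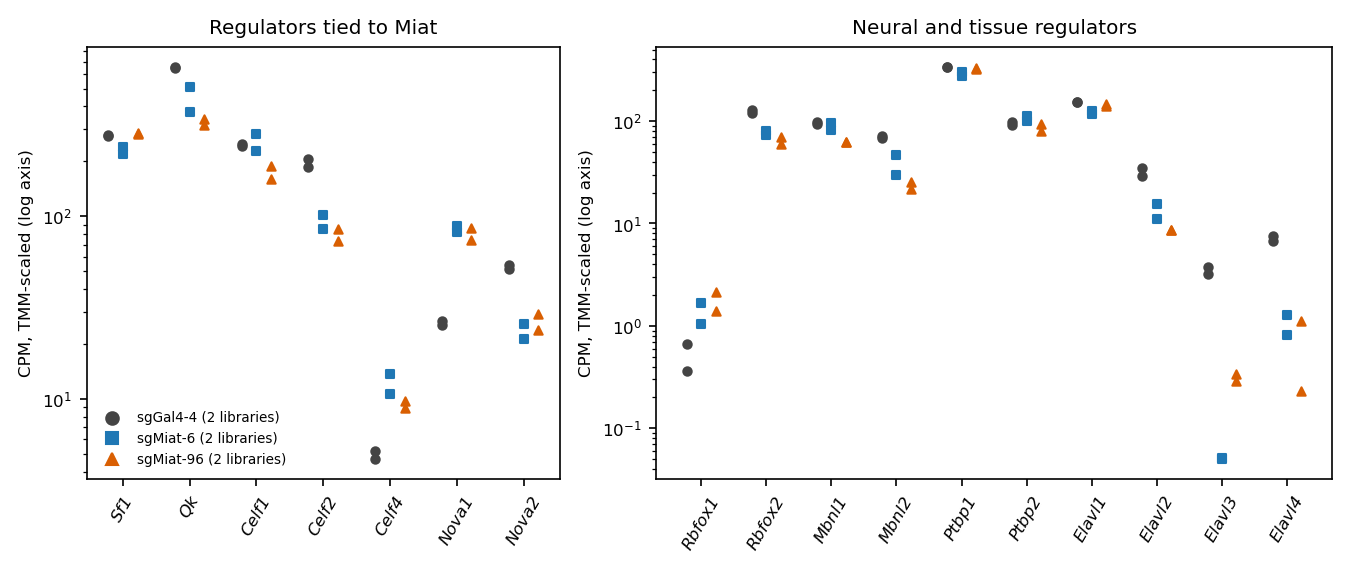
Level of each tested regulator tied to Miat (left) and of each tested neural or tissue regulator (right), as TMM-scaled CPM on a log axis, with 1 point per library and 2 libraries per guide. Nova1 sits at 25.3 and 26.8 CPM in the controls and between 74.2 and 89.0 CPM with the Miat guides, while Nova2 and Elavl2 to Elavl4 sit below their controls in all 4 Miat libraries.

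Among the 14 neural and tissue regulators, 10 were tested, and with both guides 7 fell (70%) and 1 rose (10%), where 33.4% of all genes fell and 33.1% rose. The class had a median length of 4790 bases, and among all genes of 4704 bases or more the median log2 fold change was -0.49. The fall was deepest in the Elavl genes of neurons. These encode RNA-binding proteins of the Hu family that stabilise neuronal mRNAs and act in splicing. Elavl3 had 63 and 75 counts in the control libraries (3.25 and 3.8 CPM), 1 and 1 with sgMiat-6, and 6 and 5 with sgMiat-96. All Miat libraries were far below the controls. By counts the control held 70.1 times as much as sgMiat-6 (95% Clopper-Pearson interval 19 to 584, counting error only). With sgMiat-96, Elavl3 was 11-fold lower than the control (adjusted p = 9.01e-06, edgeR quasi-likelihood test).

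Elavl4 had 6.70 and 7.55 CPM in the control, 1.29 and 0.817 with sgMiat-6, and 1.12 and 0.231 with sgMiat-96. It fell 8.34-fold with both guides (adjusted p = 3.26e-06, edgeR quasi-likelihood test), and the sgMiat-96 libraries differed from each other. Elavl2 had 34.5 and 29.1 CPM in the control, 15.4 and 11.0 with sgMiat-6, and 8.60 and 8.72 with sgMiat-96. The 3 groups of Elavl2 values did not overlap, and it fell 2.97-fold with both guides (adjusted p = 9.08e-07). Elavl1, the member expressed in all tissues, had 153.5 and 152.6 CPM in the control, 116.7 and 125.0 with sgMiat-6, and 147.5 and 139.8 with sgMiat-96. Its fall with both guides was 1.16-fold (adjusted p = 0.0423), a call lost without either control library (0.265 without replicate 1, 0.242 without replicate 2), without sgMiat-6 replicate 1 (0.0553) and without sgMiat-96 replicate 2 (0.0761), and at a log2 fold change of 0.21 with the length trend removed (adjusted p = 0.0579).

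Mbnl2, a muscleblind protein of the brain that promotes adult splicing patterns, had 68.6 and 72.1 CPM in the control, 46.2 and 29.5 with sgMiat-6, and 25.5 and 21.6 with sgMiat-96. It was lower in all 4 Miat libraries and lowest with sgMiat-96, and fell 2.36-fold with both guides (adjusted p = 8.32e-06, edgeR quasi-likelihood test). Its relative Mbnl1 averaged 95.8 ± 2.57 CPM in the control, 88.8 ± 8.93 with sgMiat-6 and 62.4 ± 0.0335 with sgMiat-96. Mbnl1 fell by 0.36 ± 0.10 with both guides (adjusted p = 0.00447), or adjusted p = 0.0784 without sgGal4-4 replicate 1, and was at 0.01 with the length trend removed. Rbfox2, which binds GCAUG motifs, had 127.1 and 119.8 CPM in the control, 79.6 and 73.6 with sgMiat-6, and 59.7 and 69.95 with sgMiat-96. All 4 Miat libraries were below the controls, and Rbfox2 fell 1.75-fold (adjusted p = 9.67e-06).

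Rbfox1, the neuronal and muscle member of that family, was the 1 gene of this class that rose, at low counts. It had 7 and 13 counts in the control, 21 and 33 with sgMiat-6, and 38 and 24 with sgMiat-96, so that the Miat libraries all lay above the controls. The rise was 3.01-fold with both guides (adjusted p = 0.00542, edgeR quasi-likelihood test), and 0.079 without sgGal4-4 replicate 1. Ptbp1, which represses neuronal exons in progenitors, averaged 339.8 ± 0.735 CPM in the control, 288.4 ± 21.6 with sgMiat-6 and 327.7 ± 8.36 with sgMiat-96, and was not called with both guides (adjusted p = 0.156). Ptbp2, its neural relative, averaged 94.7 ± 3.57, 106.9 ± 8.49 and 86.6 ± 8.74 CPM in the same order and was not called either (adjusted p = 0.853).

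The remaining 4 genes of this group had almost no reads. Rbfox3, the antigen NeuN of mature neurons, had 1 and 0 counts in each of the 3 groups. Srrm4, the activator of neuronal microexons, had 0 and 1 counts in the control and 0 in all Miat libraries. Mbnl3 had 6 and 0 counts with sgMiat-6 and 0 in the other 4 libraries. Esrp1, an epithelial splicing regulator, had 1 and 0 counts in the control, 0 and 5 with sgMiat-6, and 0 and 0 with sgMiat-96. None of these genes could be compared at this depth, where 3 counts amount to 0.149 to 0.173 CPM, depending on the library.

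Markers of other cell types moved with these groups. The summed CPM of 10 mature neuron markers ranged from 763 to 764 over the control libraries, 380 to 515 for sgMiat-6 and 308 to 313 for sgMiat-96. Most of that sum was Map2 (745, 424 and 285 CPM in that order), Syt1 and Stmn2 were at 0 in every group and Nefl in the control, and 8, 6 and 7 of the 10 markers were under 1 CPM. Of the 4 neuron markers tested, 2 were called higher and 1 lower with both guides. Tubb3 averaged 0.179, 6.2 and 8.13 CPM in that order, against the direction of the sum. The 8 astrocyte markers summed to 3320 to 3430 CPM over the controls, 1060 to 1110 for sgMiat-6 and 1120 to 1180 for sgMiat-96, with Gfap at 0 with sgMiat-96. All 8 were tested, and 1 was called higher and 7 lower with both guides. The 8 markers of the oligodendrocyte lineage summed to 2030 to 2100, 3110 to 3260 and 4750 to 4850 CPM in that order, with Mog at 0 in the control and Sox10 at 0 with sgMiat-6. Of the 5 tested, 3 were called higher and 1 lower with both guides. Olig1 averaged 966, 1960 and 3280 CPM, and Cspg4 130, 37.9 and 37.9 CPM. The 6 neural stem cell markers summed to 2910 to 3020, 4380 to 4890 and 4490 to 5120 CPM, with Prom1 at 0 in the control and with sgMiat-96. Vim made up most of that difference (1500, 2840 and 3230 CPM), and of the 5 markers tested 1 was called higher and 2 lower with both guides. Their part in the changes of the regulators was not tested.

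SR proteins and Tra2 proteins were all tested and none changed by 2-fold with both guides. Of the 12, 6 rose (50%) and 1 fell (8.33%), where 33.1% of all genes rose and 33.4% fell. The median log2 fold change was 0.22, and the median length was 2495.5 bases. Srsf3, the smallest SR protein, which also acts in mRNA export, had 298.9 and 295.8 CPM in the control, 480.5 and 492.6 with sgMiat-6, and 558.9 and 481.2 with sgMiat-96. It had the largest rise of the class with both guides, 1.69-fold (adjusted p = 1.17e-05, edgeR quasi-likelihood test). Srsf2, which contributes to splice site choice in many exons and whose span overlaps Mettl23 and Mfsd11, had 292.9 and 301.3 CPM in the control, 422.5 and 410.7 with sgMiat-6, and 526.1 and 479.6 with sgMiat-96. The 3 groups of Srsf2 values did not overlap, and the rise was 1.54-fold (adjusted p = 3.93e-05).

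Srsf6 had 207.8 and 224.2 CPM in the control, 319.4 and 307.3 with sgMiat-6, and 326.7 and 296.4 with sgMiat-96, a rise of 1.45-fold with both guides (adjusted p = 0.00018, edgeR quasi-likelihood test). Srsf7, a relative of Srsf3, had 165.8 and 171.0 CPM in the control, 231.0 and 216.3 with sgMiat-6, and 264.2 and 227.3 with sgMiat-96, a rise of 1.39-fold (adjusted p = 0.000609). For all 4 of these genes every Miat library lay above both controls. The rows kept for Srsf3, Srsf7 and Srsf9 carry noncoding RefSeq accessions, and their reads are shared with the coding rows of the same gene. Srsf10, which represses splicing when dephosphorylated, had 155.7 and 155.5 CPM in the control, 158.5 and 124.5 with sgMiat-6, and 108.6 and 102.0 with sgMiat-96. It was the 1 gene of the class that fell with both guides (log2 -0.35 ± 0.10, adjusted p = 0.00913), with adjusted p = 0.0593 or 0.0572 without control replicate 1 or 2, and its sgMiat-6 libraries spanned the controls. The rises of Srsf9 (1.21-fold) and Tra2a (1.21-fold) were lost without either control library (adjusted p = 0.0593 and 0.326 for Srsf9, 0.25 and 0.121 for Tra2a). That of Srsf9 was also lost without sgMiat-6 replicate 2 (0.0589) and sgMiat-96 replicate 1 (0.0505). Under total-count scaling neither was called (0.198 for Srsf9, 0.205 for Tra2a), and with the length trend removed Srsf9 was at -0.12 and Tra2a at 0.04.

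The genes of this class that were not called with both guides, Srsf1, Srsf4, Srsf5, Srsf11 and Tra2b, had log2 fold changes between -0.17 and 0.17. With the length trend removed, Srsf1 was called higher (0.376, adjusted p = 0.000179, edgeR quasi-likelihood test) and Srsf5 lower (-0.25, adjusted p = 0.0036). Srsf4, Srsf11 and Tra2b were still not called. Srsf1, the best studied SR protein, averaged 347.6 ± 3.48 CPM in the control, 382.7 ± 25.2 with sgMiat-6 and 317.5 ± 7.28 with sgMiat-96.

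The hnRNP proteins, which package pre-mRNA and often oppose exon inclusion, showed 3 rises and 3 falls among 15 genes with both guides, and 9 were not called. The called share was 40%, where 66.5% of all genes were called. Hnrnpa1, a splicing repressor, had 1180 and 1122 CPM in the control, 797.8 and 839.3 with sgMiat-6, and 820.6 and 853.7 with sgMiat-96. All 4 Miat libraries were below the controls, and the fall was 1.39-fold (adjusted p = 0.000244, edgeR quasi-likelihood test). Hnrnpu, a nuclear scaffold protein, had 941.2 and 916.2 CPM in the control, 753.9 and 739.7 with sgMiat-6, and 556.4 and 659.7 with sgMiat-96. Its 3 groups did not overlap, and it fell 1.38-fold with both guides (adjusted p = 0.000599). Hnrnpdl, a relative of Hnrnpd, had 227.5 and 231.9 CPM in the control, 303.1 and 305.1 with sgMiat-6, and 346.5 and 316.8 with sgMiat-96, and it rose 1.38-fold (adjusted p = 0.000383).

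The other called hnRNP changes were small. Hnrnpk, which binds C-rich RNA, had 935.7 and 940.4 CPM in the control, 834.2 and 790.5 with sgMiat-6, and 807.2 and 780.1 with sgMiat-96 (log2 -0.22 ± 0.08, adjusted p = 0.0298, edgeR quasi-likelihood test). Hnrnpm had 312.4 and 289.2 CPM in the control, 341.7 and 372.0 with sgMiat-6, and 323.5 and 405.1 with sgMiat-96 (log2 0.26 ± 0.10, adjusted p = 0.0404). Hnrnpab had 986.5 and 935.8 CPM in the control, 1043 and 1093 with sgMiat-6, and 1234 and 1237 with sgMiat-96 (log2 0.26 ± 0.09, adjusted p = 0.0174). In each of the 3 genes the Miat libraries lay on one side of the controls. All 3 calls were lost without control replicate 1 (adjusted p = 0.213, 0.0933 and 0.112 in the same order) or replicate 2 (0.227, 0.291 and 0.25). The call of Hnrnpk was also lost without sgMiat-96 replicate 2 (0.0505), and that of Hnrnpm without sgMiat-6 replicate 2 (0.0874) or sgMiat-96 replicate 2 (0.105). Under total-count scaling Hnrnpm (0.288) and Hnrnpab (0.182) were not called, and neither was Hnrnpm with the length trend removed (0.0538). The 9 genes not called had log2 fold changes between -0.21 (Hnrnpr) and 0.20 (Hnrnpc). With the length trend removed, Hnrnpa3 (0.243), Hnrnpc (0.257), Hnrnpd (0.625) and Hnrnpr (0.397) were called higher, and the rest of the 9 were still not called.

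Khdrbs1, known as Sam68, averaged 268.0 ± 0.805 CPM in the control, 281.4 ± 16.3 with sgMiat-6 and 255.9 ± 20.3 with sgMiat-96. It was not called with both guides (log2 0.00 ± 0.09, adjusted p = 0.988, edgeR quasi-likelihood test). With the length trend removed it was called higher (0.155, adjusted p = 0.0368). Khdrbs3, its relative in brain, averaged 111.4 ± 1.38, 123.5 ± 6.18 and 133.9 ± 3.63 CPM in that order, with adjusted p = 0.0542.

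**Figure D2:**
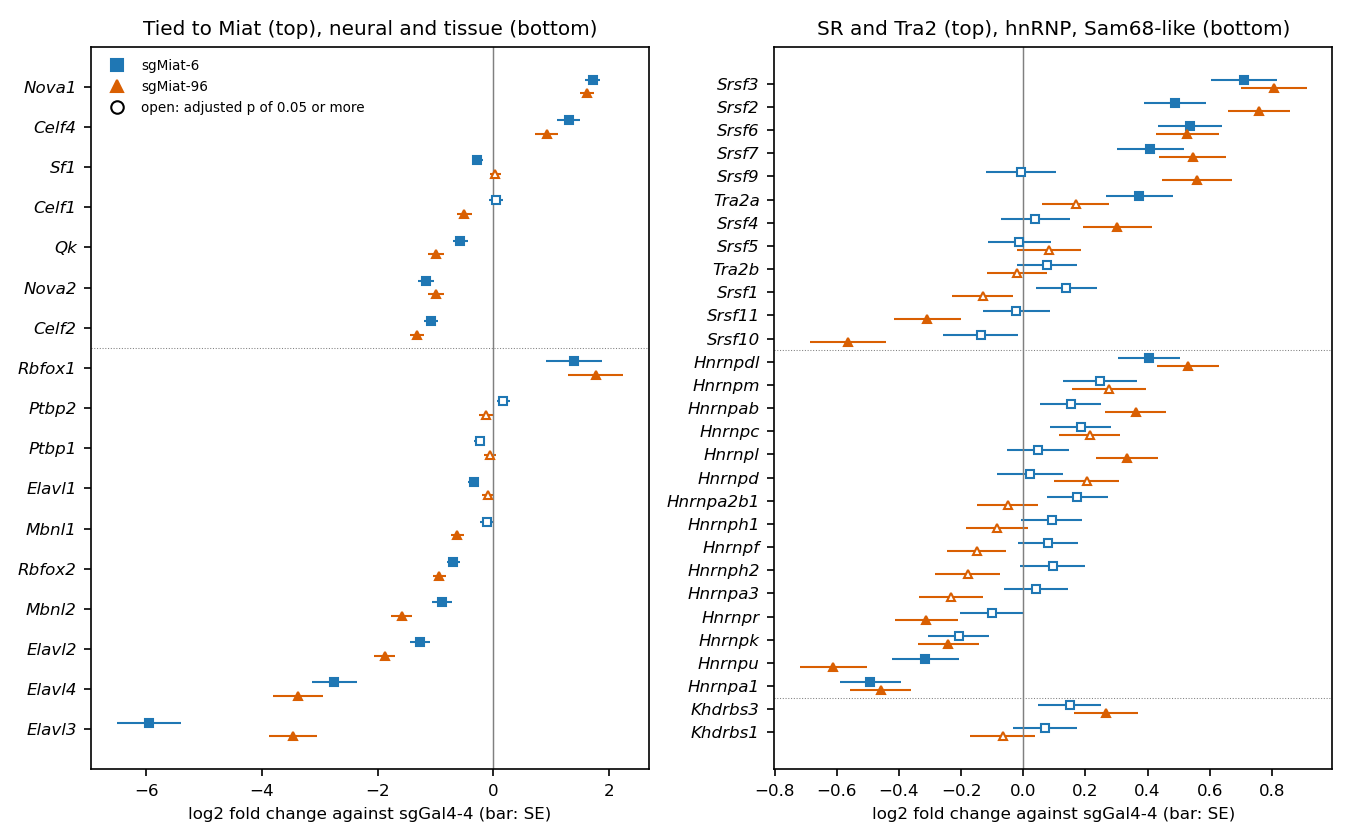
Log2 fold change of each tested regulator against sgGal4-4 with sgMiat-6 (squares) and sgMiat-96 (triangles), with bars for the SE and open symbols where the adjusted p was 0.05 or more. The horizontal scales of the left and right panels differ: the left runs from -5.96 (Elavl3 with sgMiat-6) to 1.77 (Rbfox1 with sgMiat-96), while the right stays between -0.61 (Hnrnpu) and 0.81 (Srsf3).

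Each guide was compared with the same control libraries. The 9 regulators called higher with sgMiat-6 were Celf4, Nova1, Rbfox1, Srsf2, Srsf3, Srsf6, Srsf7, Hnrnpdl and Tra2a. Its 12 calls in the other direction were Sf1, Qk, Celf2, Nova2, Rbfox2, Mbnl2, Elavl1 to Elavl4, Hnrnpa1 and Hnrnpu. The 13 called higher with sgMiat-96 were Celf4, Nova1, Rbfox1, Srsf2, Srsf3, Srsf4, Srsf6, Srsf7, Srsf9, Hnrnpab, Hnrnpdl, Hnrnpl and Khdrbs3. Its 16 falls were Qk, Celf1, Celf2, Nova2, Rbfox2, Mbnl1, Mbnl2, Elavl2 to Elavl4, Srsf10, Srsf11, Hnrnpa1, Hnrnpk, Hnrnpr and Hnrnpu.

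Some of these calls were lost when 1 library was left out, which also leaves fewer libraries to estimate the spread from. A lost call need not mean a changed fold. With sgMiat-6 the log2 fold change of Elavl1 was -0.34 with all libraries and -0.335 or -0.345 without control replicate 1 or 2. That of Rbfox1 went from 1.4 to 1.04 without control replicate 1. With sgMiat-6, Hnrnpdl and Srsf7 were not called without control replicate 1 (adjusted p = 0.0665 and 0.0719, edgeR quasi-likelihood test), nor were Tra2a and Elavl1 without control replicate 1 (0.145 and 0.12) or 2 (0.0685 and 0.109). Hnrnpu was not called without control replicate 1 (0.171) or 2 (0.114) or sgMiat-6 replicate 2 (0.0578), and Rbfox1 not without control replicate 1 (0.203) or sgMiat-6 replicate 2 (0.202). With sgMiat-96, Rbfox1 was not called without control replicate 1 (0.0535) or sgMiat-96 replicate 1 (0.0633), and Hnrnpab not without control replicate 2 (0.107). Srsf4, Srsf11, Hnrnpk, Hnrnpl, Hnrnpr and Khdrbs3 were not called without control replicate 1 (0.103 to 0.216) or 2 (0.0916 to 0.231). Without sgMiat-96 replicate 1 this held for Srsf11, Hnrnpk, Hnrnpl, Hnrnpr and Khdrbs3 (0.0534 to 0.0998), and without replicate 2 for Srsf4, Srsf11 and Hnrnpk (0.0858 to 0.191). With the length trend removed, the sgMiat-96 calls of Nova2 (0.454), Mbnl1 (0.415), Srsf4 (0.164) and Srsf9 (0.994) ended. So did those of Srsf11 (0.0657), Hnrnpk (0.0782), Hnrnpl (0.104) and Khdrbs3 (0.703), while Celf1 (0.32) and Hnrnpr (0.53) became called rises. Other settings ended those of Rbfox2 (0.0688, length trend removed with the replicate block), Hnrnpab (0.15, total-count scaling) and Celf4 (0.804, shortest row). The sgMiat-6 calls of Sf1 (0.17) and Elavl1 (0.472) ended with the length trend removed. Those of Hnrnpu (0.0556, replicate block), Rbfox1 (0.0793, DESeq2) and Qk (0.146, shortest row) ended in other settings.

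Counting libraries rather than calls, 14 regulators had all 4 Miat libraries above both controls (34.0% of all genes did) and 14 had them below (33.0% of all genes), out of the 46 tested.

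Compared directly, 5 regulators were higher with sgMiat-96 than with sgMiat-6 and 8 were lower, which is 28.3% of 46, where 36.7% of all genes were called, 17.8% higher and 18.8% lower. A called difference of at least 2-fold between the guides occurred in 1 regulator, Elavl3, and in 5.51% of all genes. It rests on 2 counts with sgMiat-6 against 11 with sgMiat-96 and was not called without any one of the 6 libraries (adjusted p = 0.0669 to 0.158, edgeR quasi-likelihood test). Mbnl2 was 1.61-fold lower with sgMiat-96 than with sgMiat-6 (adjusted p = 0.0113, edgeR quasi-likelihood test), Elavl2 1.53-fold lower (adjusted p = 0.0223) and Celf1 1.46-fold lower (adjusted p = 0.00524). Srsf9, an SR protein with a short RS domain, had 123.6 and 110.2 CPM in the control, 107.3 and 125.5 with sgMiat-6, and 174.6 and 169.9 with sgMiat-96, and was 1.48-fold higher with sgMiat-96 (adjusted p = 0.00298). Sf1 was 1.24-fold higher with sgMiat-96 (adjusted p = 0.0259). Hnrnpl, which binds CA repeats, had 469.4 and 473.5 CPM in the control, 479.4 and 495.1 with sgMiat-6, and 621.8 and 566.2 with sgMiat-96, and was 1.22-fold higher with sgMiat-96 (adjusted p = 0.0388). The other calls between the guides were Elavl3 and Srsf2, both higher with sgMiat-96, and Qk, Mbnl1, Srsf1, Srsf10 and Hnrnpu, all lower.

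Leaving out a library also leaves fewer libraries to estimate the spread from. The control libraries do not enter the difference between the guides itself, so a call lost without one need not rest on it. The count between the guides changed when single libraries were left out. It was 1 without sgMiat-96 replicate 1, 3 without sgMiat-6 replicate 1, and 7 without either control library or without sgMiat-96 replicate 2. Without sgMiat-96 replicate 1 the adjusted p was 0.0657 for Mbnl2, 0.127 for Elavl2, 0.0785 for Celf1, 0.0884 for Sf1 and 0.19 for Hnrnpl. Without sgMiat-6 replicate 1 it was 0.123 for Mbnl2, 0.194 for Elavl2, 0.113 for Sf1 and 0.116 for Hnrnpl. Without sgMiat-96 replicate 2 it was 0.0975 for Mbnl2, 0.0805 for Elavl2 and 0.0687 for Sf1. Without control replicate 1 or 2 it was 0.083 or 0.0839 for Sf1, and 0.115 or 0.116 for Hnrnpl. Of the calls given by name only, Qk (0.0606 to 0.223) and Srsf10 (0.0777 to 0.131) were lost without sgMiat-6 replicate 1 or either sgMiat-96 library, and Mbnl1 without sgMiat-96 replicate 1 (0.0518). Srsf1 was lost without any one library but sgMiat-6 replicate 2 (0.0772 to 0.179), and Srsf2 without any one but sgMiat-96 replicate 2 (0.0878 to 0.216). Hnrnpu was lost without either control library (0.0979 and 0.0988), sgMiat-6 replicate 1 (0.119) or sgMiat-96 replicate 1 (0.268). The difference in Srsf9 was called without each of the 6 libraries in turn. It was lost when the trend over transcript length was removed (adjusted p = 0.0588, edgeR quasi-likelihood test). That setting also ended the calls of Celf1 (0.453), Qk (0.971), Mbnl1 (0.14), Mbnl2 (0.0648) and Elavl2 (0.0818). The same held for Hnrnpl (0.0985), Hnrnpu (0.13), Srsf1 (0.58) and Srsf2 (0.352). Sf1 (0.00212), Srsf10 (0.0113) and Elavl3 (0.0324) were still called.

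The balance within pairs of related regulators was given as a ratio of CPM per kb in each library, without a test. Nova2 over Nova1 was 1.79 and 1.60 in the control, 0.199 and 0.263 with sgMiat-6, and 0.231 and 0.330 with sgMiat-96. Nova2 was thus the higher of the pair in both control libraries and Nova1 in all 4 Miat libraries. Elavl1 over the sum of Elavl2, Elavl3 and Elavl4 was 2.38 and 2.61 in the control, 4.76 and 7.19 with sgMiat-6, and 10.1 and 10.4 with sgMiat-96, so that the ratio was higher in every Miat library than in either control. Celf2 over Celf1 was 0.715 and 0.661 in the control and 0.311 to 0.393 in the Miat libraries. Mbnl2 over Mbnl1 was 0.861 and 0.940 in the control and 0.424 to 0.596 in the Miat libraries. Both ratios were lower in every Miat library than in either control.

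Rbfox2 over Rbfox1 was 261 and 134 in the control, 56.5 and 32.3 with sgMiat-6, and 20.6 and 37.3 with sgMiat-96, with Rbfox1 at between 7 and 38 counts. Ptbp2 over Ptbp1, the pair that switches in neuronal differentiation, was 0.265 and 0.250 in the control, 0.382 and 0.307 with sgMiat-6, and 0.266 and 0.223 with sgMiat-96. The Ptbp ratio was higher than in the control in both sgMiat-6 libraries only, and the sgMiat-96 libraries overlapped the controls. Tra2a over Tra2b was 0.412 and 0.449 in the control and 0.457 to 0.542 in the Miat libraries.

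**Figure D3:**
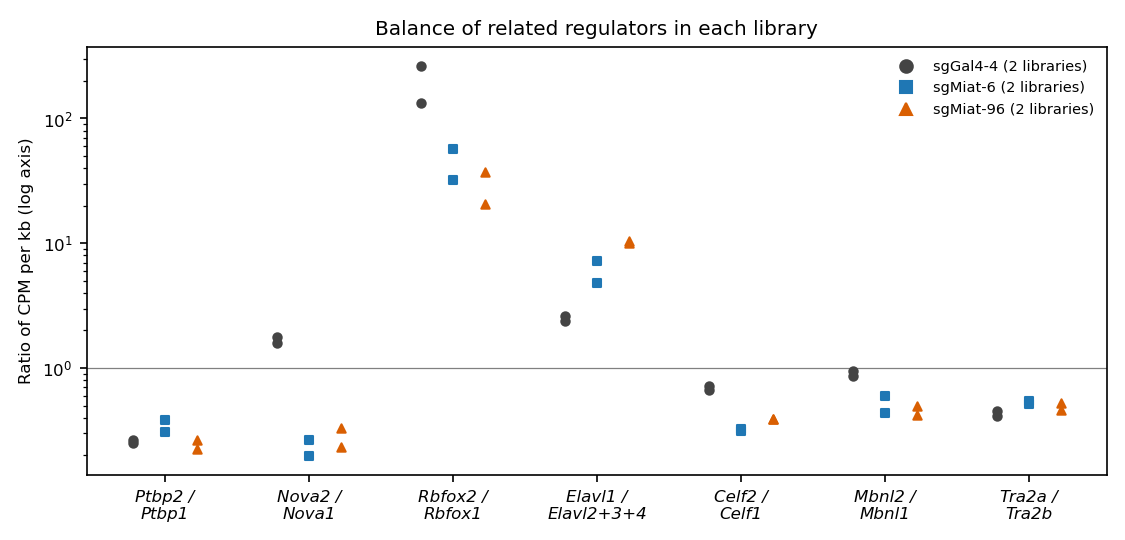
Ratio of the levels of related regulators, as CPM per kb of transcript, in each library (log axis, 2 libraries per guide, line at equal levels). Nova2 over Nova1 lies at 1.60 to 1.79 in the control and at 0.199 to 0.330 in the Miat libraries, whereas Ptbp2 over Ptbp1 overlaps between sgMiat-96 and the control.

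The files hold 147 transcript rows for the 51 regulators, and 33 of them have more than 1 row. Rows of one gene count the same shared reads, so a row was compared with the kept row of its gene in each library and was not added to it or tested. In 10 regulators at least 1 row had under 90% or over 110% of the counts of the kept row in some library, among genes whose kept row had at least 600 counts over the 6 libraries together. For Qk the 4658-base row held 83.7% and 84.5% of the kept row in the control, 107.3% and 94.6% with sgMiat-6, and 99.4% and 97.0% with sgMiat-96. The shorter row had relatively more counts in every Miat library than in the controls. Shares higher in all Miat libraries than in both controls also occurred in Rbfox2 (71.3% and 72.2% in the control, 73.7% to 84.5% with the Miat guides) and Mbnl1 (87.9% and 89.2%, and 92.1% to 99.6%).

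Khdrbs1 showed the reverse in its noncoding row of 2601 bases, with 67.7% and 67.4% in the control, 64.9% and 56.1% with sgMiat-6, and 49.1% and 56.9% with sgMiat-96. For Hnrnpa1 the noncoding 1324-base row held 85.4% and 83.4% in the control, 80.9% and 77.4% with sgMiat-6, and 70.2% and 75.6% with sgMiat-96. The 2258-base row of Celf4 held 22.8% and 22.8% in the control and 10.7% to 21.7% in the Miat libraries, on a kept row of 92 to 277 counts per library. In these 3 genes and in Hnrnpa3 the share was lower in every Miat library, and in Celf1, Srsf10 and Srsf11 the groups overlapped. Such shares were not computed for genes outside the regulators. How common a separation of this kind is among genes in general was therefore not tested, and it is not shown to be particular to the regulators. Counts per row do not separate splice forms, since reads shared by rows enter each of them.

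**Figure D4:**
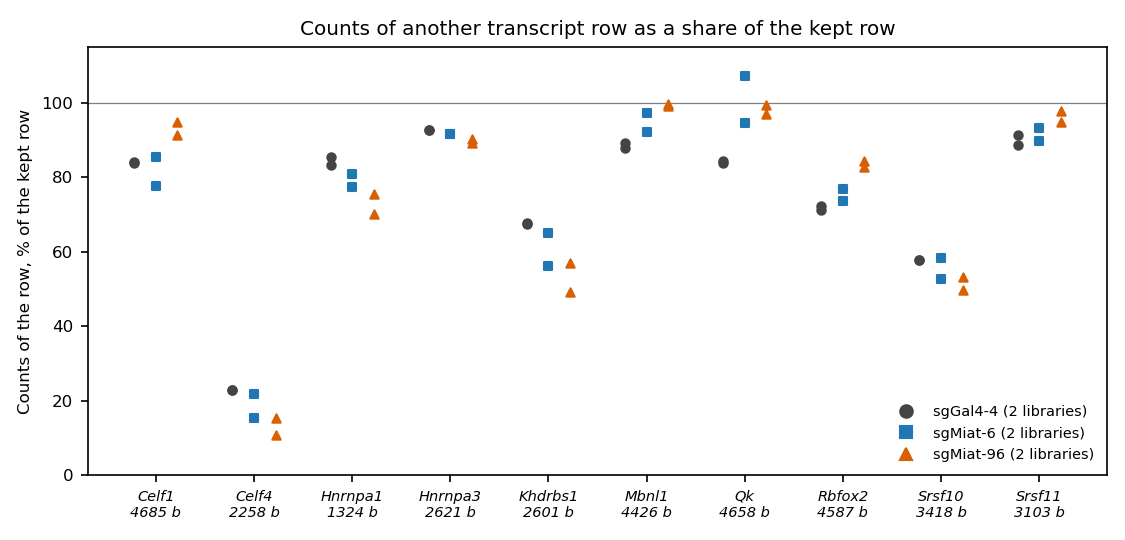
Counts of another transcript row as a percentage of the counts of the kept row of the same gene, in each library, for the 10 regulators with such rows (row length in bases, b, under each name, 1 row per gene). Qk has 83.7% and 84.5% in the control and between 94.6% and 107.3% with the Miat guides, and Khdrbs1 from 67.4% and 67.7% to between 49.1% and 64.9%.

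Transcript length moved with the fold changes of all genes. With both guides the median log2 fold change was 0.49 in the shortest of 5 bins of tested genes of about equal size (up to 1554 bases) and 0.20, 0.01, -0.16 and -0.49 in the next 4 bins, the last one starting at 4704 bases. With sgMiat-96 it ran from 0.70 to -0.70, and with sgMiat-6 from 0.29 to -0.27. The tested Miat-tied regulators had a median kept row of 7000 bases and the SR and Tra2 genes one of 2495.5 bases. The number of tested regulators from the shortest to the longest bin was 1, 11, 11, 9 and 14.

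After the trend over length was removed, Nova1 still rose (log2 2.19), and Celf2 (-0.52), Nova2 (-0.45), Qk (-0.29), Rbfox2 (-0.29) and Mbnl2 (-0.99) still fell with both guides. Srsf2 (0.42), Srsf3 (0.85), Srsf6 (0.67), Srsf7 (0.51) and Hnrnpdl (0.51) were also still called higher. Hnrnpa1 (-0.67), Hnrnpu (-0.32), Elavl2 (-1.37), Elavl3 (-4.4) and Elavl4 (-2.87) were still called lower. With sgMiat-96 alone Nova2 was at -0.13 (adjusted p = 0.454, edgeR quasi-likelihood test) in place of -0.99. Mbnl1 was at 0.01 with both guides, and Celf1 rose by 0.36 (adjusted p = 0.000321) where it had been at -0.23. The split of calls with both guides became 16 higher and 13 lower.

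**Figure D5:**
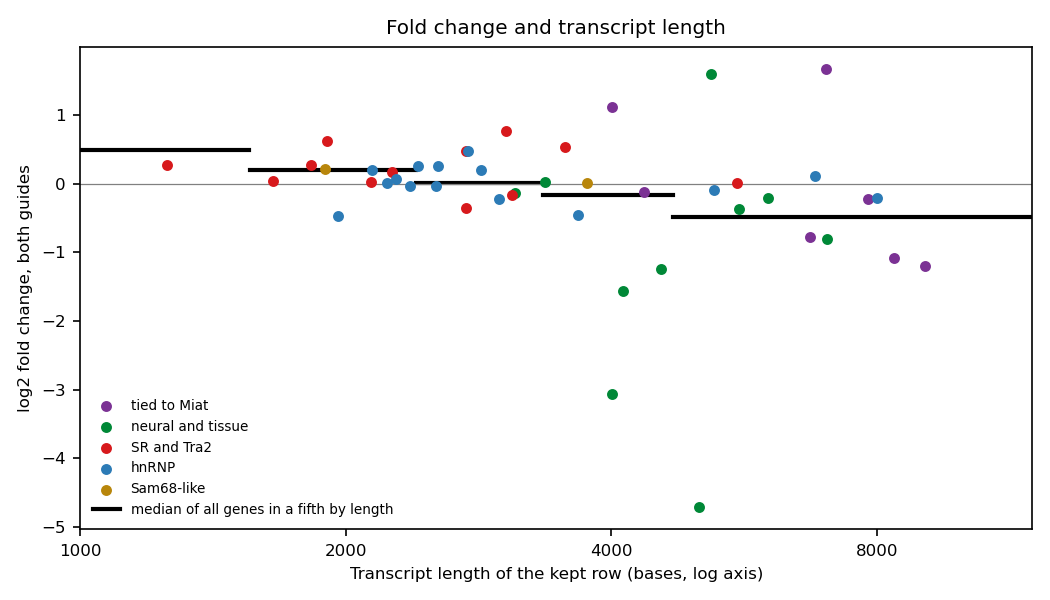
Log2 fold change with both Miat guides against the length of the kept transcript row (bases, log axis) for the tested regulators, coloured by role, with the median of all tested genes in each of the 5 length bins as black bars. The bars step down from 0.49 to -0.49, and Nova1 (1.67) and Elavl3 (-4.71) lie far from them. Of the SR and hnRNP genes, Srsf3 (0.76) and Srsf6 (0.53) lie above and Hnrnpa1 (-0.48) below the bars of their bins.

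Other genes of the splicing machinery were read from lists that are not part of the 51. Of 46 core spliceosome genes tested, 22 rose and 9 fell with both guides (median log2 0.19). Snrpd2 and Snrpb, Sm proteins of the snRNP core, rose by 1.16 ± 0.13 and 1.03 ± 0.11, and Prpf8, the large U5 protein at the catalytic centre, fell by 0.76 ± 0.10 (adjusted p = 3.92e-06, 2.77e-06 and 1.72e-05, edgeR quasi-likelihood test). Of 21 splicing kinases and RS-domain cofactors, 2 rose and 10 fell (median -0.21). Srrm2 and Son, large proteins of nuclear speckles, fell by 1.11 ± 0.09 and 1.02 ± 0.10 (adjusted p = 2.1e-07 and 2.06e-06). Of 35 relatives of the regulators, 8 rose and 12 fell (median -0.04). Celf5 averaged 2.19 ± 0.335 CPM in the control and rose, reaching 14.3 ± 2.11 for sgMiat-6 and 16.6 ± 0.229 for sgMiat-96 (adjusted p = 5.01e-08), and Taf15 fell by 0.91 ± 0.11 (adjusted p = 7.64e-06). Where all genes had a called share of 66.5%, these lists had 67.4%, 57.1% and 57.1%. Of all genes 33.1% were called higher and 33.4% lower. The lists had 47.8% and 19.6%, 9.52% and 47.6%, and 22.9% and 34.3% in the same order. Their median lengths were 2428, 4177 and 2939 bases, against 2843.5 bases for all genes. These lists were not read with the length trend removed, so its part in their changes was not tested.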

How the data were processed

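STAR and the build GRCm38 (mm10) are named in the submitters' processing notes. The sources used here do not give its version, the read counter, the strand setting or the annotation. Per the file headers, the deposited columns are a count, FPKM and TPM per RefSeq transcript (33984 rows, 24063 symbols). The deposited FPKM values served to recover transcript lengths and zeros, and the deposited TPM values were not used. In 1 library (sgMiat-96 replicate 2), 11223 rows have an FPKM of 0 but 1 count, and these counts were set to 0. For each symbol the row with the highest total count was kept.

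Counts were tested with edgeR 4.0.16 (R 4.3.3) in 1 quasi-likelihood fit of 3 groups with 3 residual degrees of freedom, using TMM scaling and the group-wise filterByExpr. P-values were adjusted by Benjamini-Hochberg over 13220 genes and called under 0.05. The SE is the absolute log2 fold change over the square root of F. CPM per kb was used between genes. Intervals and floors cover counting error only. The biological coefficient of variation was 0.0986, and replicates differed by more than sampling noise. On simulated data of 12849 genes, the test of both guides recovered 79.1% of genes changed 1.5-fold and 100% of those changed 2-fold, with 5 false calls of 191. The simulation changed a small share of the genes, all of them well counted, and as many up as down. It used the same spread for every gene and library and held no length trend. In these data 66.5% of genes were called with both guides, so the simulated rates need not hold for them. Coordinates, overlaps and the Miat sequence come from GENCODE M21 on GRCm38. Of the 51 regulators, 9 overlap the span of another protein-coding gene, whose reads could not be told apart.

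The regulators, the lists and the rule for named genes were chosen with earlier results of these data known. All Miat-tied regulators, those with 3 or fewer counts in a group, and, at a mean of 2 CPM or more, up to 4 per direction in each other class and 3 per direction between guides were given by library. Of each other list, up to 3 per direction could be named. Alternatives were DESeq2 1.42.0, total-count scaling, no filter, the counts as deposited, the longest row, a replicate block, removal of the trend over length (loess, span 0.3) with and without the block, and leaving out each library. The shortest row and a crossed block were added after seeing the data.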

Additional observations from a re-analysis of the deposited data

Results flagged for a closer look

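For 4 regulators the log2 fold changes of the 2 guides against the control differed in sign, and the difference between the guides passed the test. That test was the edgeR quasi-likelihood test, given as the log2 fold change of sgMiat-96 over sgMiat-6. It called 36.7% of all genes, and the share of all genes that also differed in sign was not counted. No regulator among these 4 was called against the control with each guide on its own. With both guides together Srsf9 was called higher (0.28, adjusted p = 0.0251), and Celf1, Sf1 and Srsf1 were not called. Celf1 and Srsf9 were not called with sgMiat-6 (adjusted p = 0.773 and 0.964), nor Sf1 with sgMiat-96 (0.749). Celf1 differed by -0.54 (adjusted p = 0.00524), with 0.04 for sgMiat-6 and -0.50 for sgMiat-96 against the control. Srsf9 differed by 0.57 (adjusted p = 0.00298), with -0.01 and 0.56 in the same order. Sf1 differed by 0.31 (adjusted p = 0.0259), with -0.27 and 0.04. Srsf1 differed by -0.27 (adjusted p = 0.0487), with 0.14 and -0.13, neither of which was called. The call of Celf1 was lost without sgMiat-96 replicate 1 (adjusted p = 0.0785). Those of Sf1 and Srsf1 were lost without any one library except sgMiat-6 replicate 2 (0.0687 to 0.113 for Sf1, 0.0772 to 0.179 for Srsf1). That of Srsf9 was kept without each library. With the length trend removed, the difference was -0.08 for Celf1 (adjusted p = 0.453) and 0.06 for Srsf1 (0.58). It was 0.235 for Srsf9 (0.0588) and 0.52 for Sf1 (0.00212).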

How the results depend on the processing

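Over 15 alternatives, 16 of the 26 regulators called with both guides kept their call and direction in every one: Celf2, Elavl2, Elavl3, Elavl4, Hnrnpa1, Hnrnpdl, Hnrnpu, Mbnl2, Nova1, Nova2, Qk, Rbfox2, Srsf2, Srsf3, Srsf6 and Srsf7. The same held for 13 of 21 with sgMiat-6, 15 of 29 with sgMiat-96 and 0 of 13 between the guides. Counted as pairs of regulator and alternative, calls were lost, or turned in direction, in 46, 23, 54 and 79 in these comparisons and gained in 35, 22, 44 and 43. Counts of calls lay near 26 with both guides under DESeq2 (27) and in the shortest row (25). Between the guides, 13 regulators became 22 under total-count scaling (2 higher, 20 lower). Total-count scaling gave 9 higher and 14 lower with sgMiat-6, and 9 and 26 with sgMiat-96.

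The replicate block gave 20 calls with both guides, 19 with sgMiat-6, 26 with sgMiat-96 and 7 between the guides. Same-numbered libraries did not deviate together (correlations 0.00947, -0.091 and -0.213), so the numbers are not shown to pair the samples, and crossing the numbers of the Miat guides gave 19 regulators and 5757 genes between them. The replicate block with the length trend removed left 2721 genes called between the guides, against 4850.

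With 1 library left out, the lone library was assumed to vary like the others, and the calls ranged from 17 to 32 regulators (6986 to 9246 genes) with both guides, 14 to 21 (5194 to 7299) with sgMiat-6, 22 to 33 (7548 to 9519) with sgMiat-96, and 1 to 18 (1124 to 5740) between the guides, the lowest without sgMiat-96 replicate 1. Without sgMiat-6 replicate 1, 2253 genes were called between the guides.

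Reversals in which the main or the alternative value was called occurred under removal of the length trend, alone or with the replicate block, and are given in that order. A further 32, 28, 15 and 40 pairs in the 4 comparisons changed sign with no call in either. With both guides these were Celf1 (0.357, 0.357), Mbnl1 (0.00863, 0.00797), Elavl1 (0.213, 0.213), Srsf5 (-0.25, -0.25), Srsf9 (-0.118, -0.118), Hnrnpa3 (0.243, 0.242) and Hnrnpr (0.397, 0.397). With sgMiat-6 it was Hnrnpr (0.267, 0.267). With sgMiat-96 these were Celf1 (0.318, 0.318), Elavl1 (0.517, 0.518), Srsf1 (0.404, 0.404), Srsf5 (-0.318, -0.319), Srsf9 (-0.000718, -0.000834), Hnrnpa3 (0.252, 0.251), Hnrnpr (0.526, 0.527) and Khdrbs3 (-0.0333, -0.0333). Between the guides these were Celf2 (0.269, 0.269), Srsf1 (0.0568, 0.0565) and Hnrnpr (0.259, and 0.26 with the block, not called there). The cause was not tested.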
